A study of Homo sapiens with 32 samples.

Results

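Newly made RNA was measured on 16 of the 32 exon arrays of a study of human B-lymphoblastoid cell lines (B-LCLs), which are B lymphocytes immortalised with Epstein-Barr virus. These 16 arrays are the ones whose titles name a nascent RNA sample, and no array of total RNA was used. Cells in log-phase growth had been given 200 µM 4-thiouridine (4sU) for 2 h. RNA was extracted with TRIzol and RNeasy columns, the 4sU-labelled RNA was separated from the rest, and ribosomal RNA was reduced before cDNA synthesis. All groups carried the same label and no untreated array belongs to the nascent set, so the labels set the groups apart only by cell line. GM07029, GM10835 and GM12813 were each represented by 3 independent cultures, and each GM12813 culture was hybridised to 2 arrays. GM07019, GM12812, GM12814 and GM12815 were represented by 1 culture each. This gave 13 cultures of 7 lines. Each line is the transformed cells of 1 person, so a difference between lines may belong to the person, to the transformation or to the culture, which cannot be told apart here.

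4sU is a uridine analogue that cells take up and build into RNA while it is being transcribed. Its sulphur atom lets labelled molecules be biotinylated and pulled out of bulk RNA, so the labelled fraction holds the transcripts made during the pulse, less those already degraded. Levels in this fraction therefore follow transcription more closely than levels in total RNA do, and short-lived transcripts, such as those of immediate early genes, weigh more in it. B-LCLs resemble activated B cells: the viral protein LMP1 imitates CD40 signalling and keeps NF-kB active.

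A window of promoter sequence is shown first for the 7 genes that were among the 20 highest levels of newly made RNA and hold the letters TATA close upstream of their start. The TATA box is a core promoter element bound by the TATA-binding protein, and histone and heat shock genes are textbook examples of genes that carry it. The windows are 30 bases of RefSeq promoter (GRCh38.p14), from 45 to 16 bases before the annotated start, read 5′ to 3′ on the gene's strand, and capitals mark the TATA letters. HSPA8 encodes the constitutive cytosolic chaperone HSC70 (chr11:123062152-123062181, minus strand). H3C2 (chr6:26032115-26032144, minus strand) and H3C3 (chr6:26045339-26045368, plus strand) encode histone H3, and H2AC16 (chr6:27865272-27865301, plus strand) encodes histone H2A. TXNIP encodes the thioredoxin-interacting protein (chr1:145996595-145996624, minus strand). NFKBIA encodes the NF-kB inhibitor IκBα (chr14:35404765-35404794, minus strand), and IRF4 encodes a transcription factor of activated B cells and plasma cells (chr6:391707-391736, plus strand).
HSPA8: ttctaagatagggTATAagaggcagggtgg
H3C2: ggtggtctgactcTATAaaagaagagtagc
H3C3: gaatgtttctcacTATAtttaaaggccact
TXNIP: ttctggcccgggctacTATATAgagacgtt
NFKBIA: ccccagccagcgttTATAgggcgccgcggc
H2AC16: cgcccagtattgacTATAagtagtggagct
IRF4: ccccagagagttcTATAaagttcctctttc

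TATA reads the same on both strands, so 1 search covers both. The letters stood in this window for 7 of the 18 genes of the 20 highest levels that had a promoter in the table, or 38.9%. Among the 100 highest levels the share was 34.8% (31 of 89), and among the next 900 genes it was 8.59%. Of all 7614 ranked genes with a promoter, 6.69% held TATA there, close to the 6.71% of all 35116 promoters of the table. Replication-dependent histone genes made up 13 of the 100 highest levels, and without them 26.9% (21 of 78) held the letters. From the lowest to the highest quartile of levels the shares were 9.72%, 5.78%, 3.74% and 7.72%. They did not rise gradually with level. Among the quartiles the lowest had the largest share, above that of all ranked genes, and the share in the top 100 genes exceeded every quartile. The motif and the window were chosen after the levels had been seen, and a match describes letters, not a working element.

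Levels are log2 array signals of transcript clusters, the array's gene units, so a difference of 1 is a 2-fold difference in signal. The array held 21788 clusters, of which 14405 carried exactly 1 gene symbol. Background was taken as 6.90, the 95th percentile of the 7-line mean over 221 olfactory receptor clusters, since these genes are silent in B cells. Above it lay 13991 clusters, 9342 of them with 1 symbol, and after leaving out olfactory, immunoglobulin and T cell receptor genes and keeping 1 cluster a gene, 9234 genes were ranked. Of these, 8221 were above background in all 7 lines once the arrays were set to a common median. Over genes, r was 0.989 to 0.994 between technical duplicates, 0.977 to 0.996 between cultures of a line and 0.863 to 0.971 between cultures of different lines. The median SD was 0.11 between cultures of a line and 0.25 between the 7 line means. Different clusters rest on different probes, so an order of levels is an order of signals and not of molecule numbers.

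The labelled cell type was checked against its markers. All 29 B cell identity genes with a single-symbol cluster were above background, with PAX5 at 11.41, CD22 at 10.93, CD79A at 10.30 and MS4A1 at 9.62. Of the T and NK cell markers 3 of 14 were above background (CD7, NKG7 and CD28), while CD3D stood at 4.61 and CD8B at 3.46. Of the monocyte and granulocyte markers only ELANE of 7 was above it, with LYZ at 4.14 and CD14 at 5.32. Of the fibroblast and epithelial markers 5 of 10 were above it, with KRT8 at 11.10, while EPCAM stood at 3.71 and LUM at 3.78. The summed signal of these 3 lists, as log2, ranged over the lines from 10.32 to 10.59, from 9.12 to 9.37 and from 11.36 to 11.87.

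HSPA8 had the highest level, with 13.42 ± 0.13 (SD, n = 7 lines). The value in each line was 13.46 in GM07019, 13.49 in GM07029, 13.27 in GM10835, 13.38 in GM12812, 13.35 in GM12813, 13.33 in GM12814 and 13.67 in GM12815, so no line stood far from the rest. LDHA, the lactate dehydrogenase of glycolysis, followed at 13.27 ± 0.14, between 13.05 in GM07029 and 13.46 in GM12815. The glycolytic enzymes ENO1, at 12.63 ± 0.13, and PGK1, at 12.58 ± 0.11, were in the same top 20. The cytoskeletal genes TUBB (12.86 ± 0.09), ACTB (12.84 ± 0.23) and ACTG1 (12.65 ± 0.07) were there too, with the polyubiquitin gene UBB (12.85 ± 0.17) and the ribosomal protein gene RPL36AL (12.79 ± 0.33).

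The histone genes H3C2 (12.96 ± 0.22), H3C3 (12.73 ± 0.27) and H2AC16 (12.60 ± 0.54) ranked 6, 11 and 18, and RRM2, which supplies deoxynucleotides for DNA synthesis, ranked 17 at 12.61 ± 0.16. TXNIP stood at 12.72 ± 0.28 and NFKBIA at 12.69 ± 0.17. Of the genes tied to B lymphocytes, the tetraspanin gene CD53 reached 12.64 ± 0.18 and IRF4 12.58 ± 0.09. AP1M2, RBFOX2 and CPT1C ranked 3 to 5, at 13.08 ± 0.16, 13.02 ± 0.21 and 12.99 ± 0.14. AP1M2 encodes an adaptor subunit known from epithelia, RBFOX2 a splicing regulator and CPT1C a carnitine palmitoyltransferase known from the brain. With arrays set to a common median, each of these 3 was lowest in GM07019 or GM12812 and highest in GM12815. HSPA8 and LDHA were also highest in GM12815. This scaling raised GM12815 and lowered GM10835 against the values as deposited. Relative to their means over lines, the median of all ranked genes moved from −0.27 to 0.05 in GM12815. In GM10835 it moved from 0.21 to −0.05. Which line was highest for these genes may therefore depend on the scaling. From AP1M2 down to IRF4, each rank's mean lay closer to the next than the larger of their SDs over lines, whereas HSPA8 exceeded LDHA, and LDHA exceeded AP1M2, by slightly more than these SDs.

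**Figure D1:**
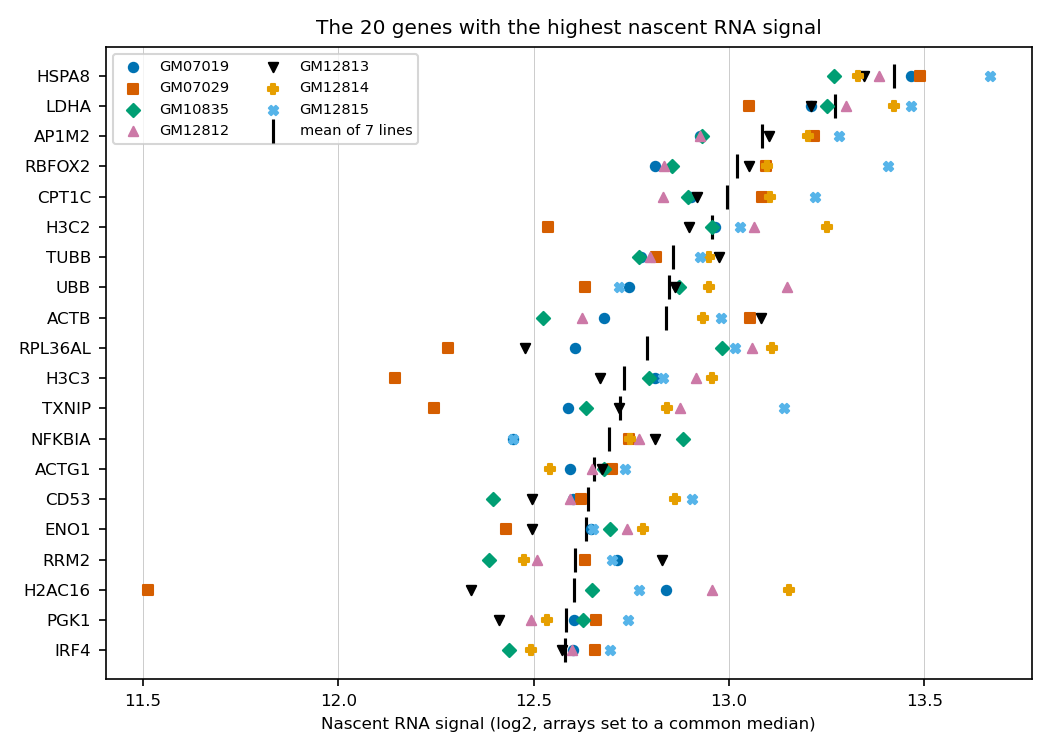
Log2 nascent RNA signal of the 20 genes with the highest mean over 7 lines, ordered by that mean; coloured symbols are line values and black bars their mean. The 7 HSPA8 values lie between 13.27 and 13.67, and H2AC16 spreads most, from 11.51 in GM07029 to 13.15 in GM12814.

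The top of the ranking was shared between lines. Each line's own top 20 held 14 to 19 of these 20 genes, with the fewest in GM07029, and 7 genes were in the top 20 of every line. For the top 100 the overlap was 78 to 90 genes, and for the top 1000 it was 838 to 904. The median ranked gene stood at 8.76, 350 genes lay above 11, 65 above 12 and 4 above 13. MYC, the transcription factor behind B cell growth, ranked 83 at 11.84 ± 0.18. JUN stood at 9.65 ± 0.69, and FOS, a short-lived immediate early gene, was only slightly above background at 7.32 ± 0.21.

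Gene groups differed in level. SR proteins and spliceosome factors had the highest median of the larger lists, 10.63 over the 57 of 59 members on the array that were above background, and 31 of them were among the 1000 highest genes. The median was 10.58 for genes of the heat shock and unfolded protein responses (20 members), and NF-kB targets stood at 10.56 (21 members), replication-dependent histones at 10.26 (44 of 49) and interferon-stimulated genes at 10.07 (32 members). The median of all ranked genes was 8.76. Mitochondrial ribosomal proteins (9.04, 64 of 66) and oxidative phosphorylation genes (9.11, 54 of 63) were nearer to it, and KRAB and other zinc finger genes lay below it at 8.41 (242 of 305). MALAT1, a nuclear long noncoding RNA, ranked 27 at 12.46 ± 0.25. These are medians of signals from different probe sets, and the members below background are left out of them.

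Across lines, most genes varied little and a few varied by many fold. The SD over the 7 line means had a median of 0.24 over ranked genes. It was above 0.5 for 597 genes (6.47%), above 1 for 53 and above 1.5 for 10. Its median was nearly level over the quartiles of signal (0.25, 0.25, 0.25 and 0.23 from the lowest to the highest), whereas the SD between cultures fell from 0.17 to 0.077. SDs above 1 were found for 21, 22, 8 and 2 genes in these quartiles.

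**Figure D2:**
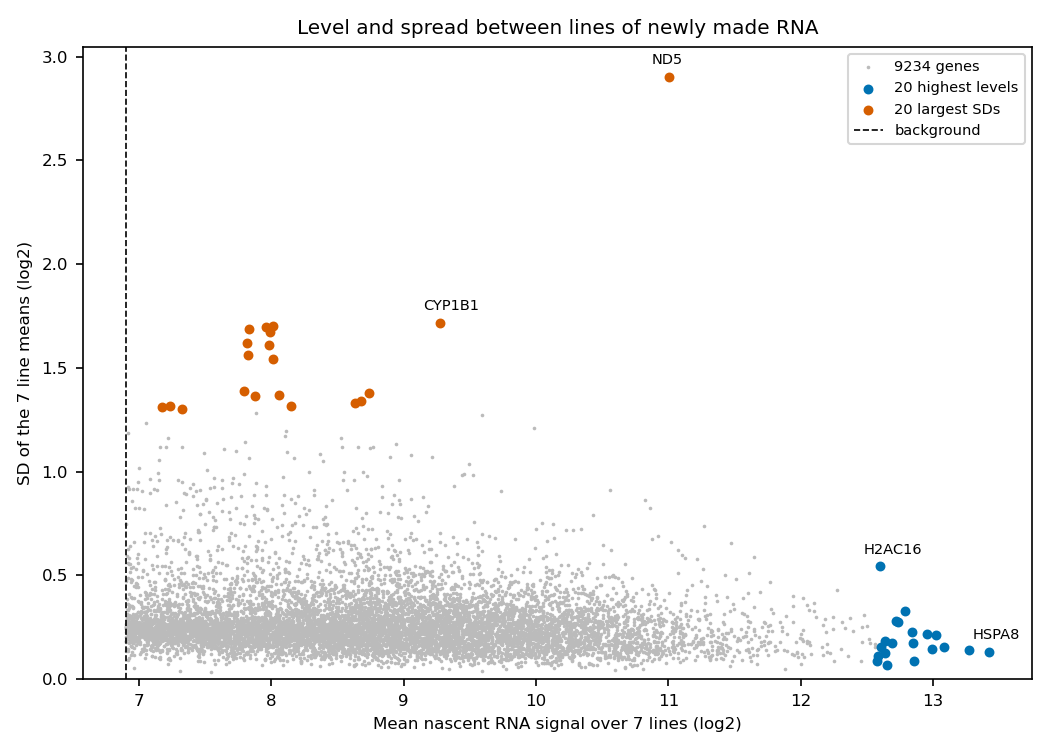
SD of the 7 line means (vertical, log2) against mean nascent RNA signal (horizontal, log2) for 9234 genes; the dashed line is the background of 6.90, blue points the 20 highest levels and orange points the 20 largest SDs. ND5 stands alone at an SD of 2.90, and the other orange points lie between 1.30 and 1.72 at signals below 9.5.

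The largest SD belonged to ND5, a subunit of respiratory complex I that is encoded in mitochondrial DNA. Its signal was 12.17 in GM07019, 12.43 in GM07029, 12.09 in GM10835, 11.77 in GM12812, 11.95 in GM12814 and 12.19 in GM12815, but 4.44 ± 0.57 (SD, n = 3) in GM12813. The 3 GM12813 cultures gave 5.06, 4.30 and 3.94, all below background, and did not overlap any other line. Set against the background, the signal was at least 5.53 lower than in GM07029. The limma adjusted p of 2.8e-09 belongs to the fitted difference and not to this bound, and the gene was chosen for its spread. Probe sequences were not analysed here, so whether the probes bind alike in all lines was not tested.

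CYP1B1, a cytochrome P450 induced through the aryl hydrocarbon receptor, was next with an SD of 1.72. It stood at 10.75 ± 0.07 in GM07029, 10.64 ± 0.07 in GM10835 and 10.98 ± 0.08 in GM12813 (SD, n = 3 each), at 9.24 in GM07019, 9.11 in GM12814 and 7.86 in GM12815, and at 6.32, below background, in GM12812. The 3 replicated lines were thus all high, and the spread came from the lines with 1 culture. FAM30A, a noncoding RNA of B lineage cells, differed between the replicated lines. Its cultures gave 5.18, 5.66 and 6.33 in GM07029, 10.15, 9.98 and 9.87 in GM10835, and 9.25, 9.25 and 9.26 in GM12813. GM07019 (8.85) and GM12815 (9.21) were also high, while GM12812 (6.44) and GM12814 (6.61) lay below background.

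Most of the remaining genes named for the largest SDs encode secreted or surface proteins. They were grouped in this way after the genes had been seen. The share of such proteins among all ranked genes was not determined, so whether they were in excess was not tested. IL1A, an inflammatory cytokine, was 10.40 ± 0.04 in GM07029 and 9.19 ± 0.10 in GM12813 but 6.23 ± 0.10 in GM10835 (n = 3 each), with 9.08, 7.52, 5.65 and 7.68 in GM07019, GM12812, GM12814 and GM12815. EFNA5, an ephrin ligand, was at 9.35 in GM07029, 9.18 in GM12813, 9.11 in GM07019 and 8.96 in GM12814, and at 5.60 in GM10835, 5.78 in GM12812 and 6.88 in GM12815. It thus split the lines into a group of 4 well above background and a group of 3 below it. APP, the amyloid precursor, was high in GM07019, GM12812, GM12813 and GM12814 (9.11 to 9.59) and below background in GM07029 (6.11), GM10835 (5.80) and GM12815 (6.80). EPHB1, an ephrin receptor, ranged from 6.88 in GM12812 to 10.08 in GM12814.

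Of the other surface genes, GPC4, a heparan sulphate proteoglycan, was lowest in GM10835 at 6.04 and highest in GM12813 at 9.68. CHL1, a neural adhesion molecule, ranged from 6.11 in GM10835 to 9.72 in GM07029, and the mucin gene MUC13 from 6.55 in GM12815 to 9.97 in GM12814. CCR9, a gut-homing chemokine receptor, reached 11.13 ± 0.11 in GM10835 and 9.26 ± 0.23 in GM07029 and lay between 6.88 and 7.32 in the other 5 lines. Among secreted proteins, the metalloproteinase gene MMP7 was highest in GM10835 (10.14) and GM07029 (9.76) and lowest in GM07019 (5.94). F13A1, a coagulation factor subunit, was 10.32 in GM12813 and 6.34 in GM10835, and TNFRSF11B, the decoy receptor osteoprotegerin, was 8.59 and 5.64 in the same lines.

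The other genes of the group included NRIP1, a nuclear receptor corepressor, from 5.13 in GM12812 to 9.75 in GM10835. PRKCH, a protein kinase C, ranged from 6.05 in GM10835 to 9.97 in GM12814, and LAPTM4B, a lysosomal membrane protein, from 6.07 to 9.69 in the same lines. H1-1, a linker histone, ranged from 5.97 in GM10835 to 9.73 in GM12812. INPP5F, an inositol phosphatase, was highest in GM10835 (9.65) and lowest in GM07029 (5.62), and ELAPOR2 was highest in GM07019 (8.63) and lowest in GM12813 (5.39). All 20 genes were below background in their lowest line. Of all ranked genes, 71 (0.769%) were more than 2 above background in their highest line and below it in their lowest. These counts are for arrays set to a common median. There the olfactory receptor median was 4.60 in GM10835 and 5.30 in GM12815, so lying below background depends in part on the scaling.

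**Figure D3:**
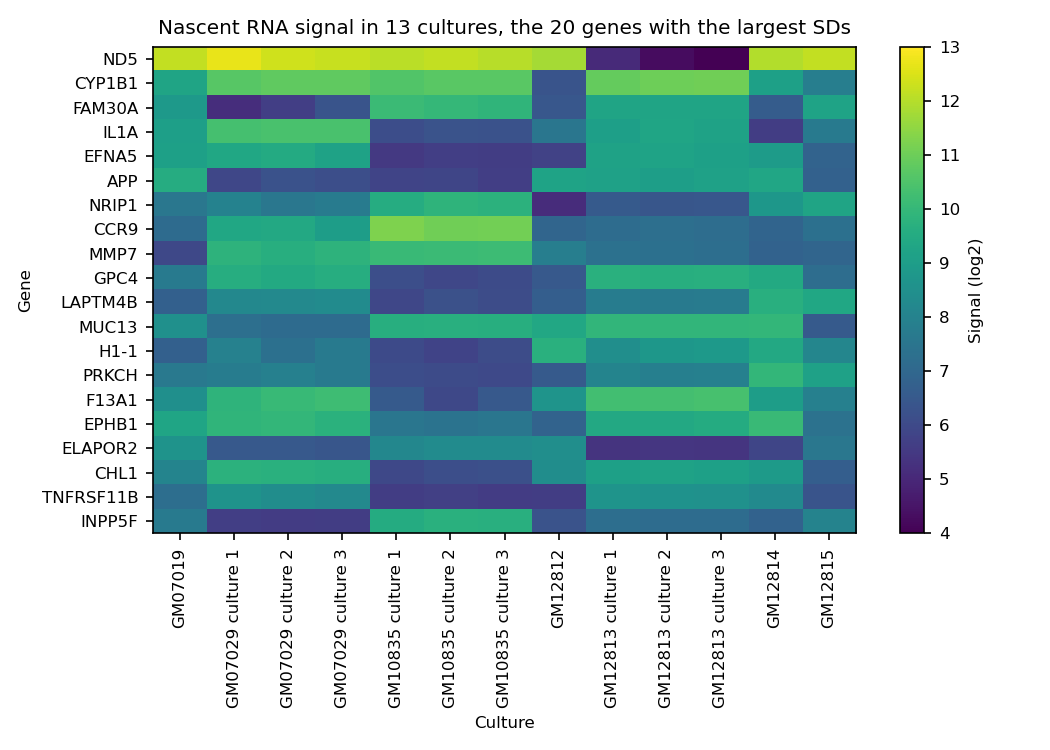
Log2 nascent RNA signal (colour scale) of the 20 genes with the largest SD over 7 lines, in order of that SD from the top, in each of the 13 cultures. Cultures of a line have like colours, ND5 is dark in the 3 GM12813 cultures alone, and FAM30A is dark in the 3 GM07029 cultures, GM12812 and GM12814.

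At the other end were genes whose newly made RNA was nearly the same in every line once the arrays were set to a common median. Among the top quartile of levels the smallest SDs were those of DIDO1 (10.60 ± 0.04), the bromodomain gene BRD2 (11.88 ± 0.05), the histone-binding protein gene RBBP7 (9.77 ± 0.05) and the ATP synthase subunit gene ATP5F1C (10.81 ± 0.05). UBE2H, CCT4, PKM, SFSWAP, RNF114 and TMEM248 had SDs of 0.05 to 0.06. BRD2 ranged from 11.80 in GM10835 to 11.94 in GM12812. None of these 10 genes passed the F test between lines described next, which the choice of small SDs favours.

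Whether lines differed by more than their cultures did was tested with limma's moderated F test over 13991 clusters, with Benjamini-Hochberg adjustment at 0.05. Over the 9 cultures of the 3 replicated lines 7855 clusters (56.1%) passed. Over all 13 cultures and 7 lines 10661 clusters (76.2%) passed, where each line with 1 culture is assumed to vary like the replicated ones. Calls followed signal: 29.1%, 54.5%, 71.2% and 74.6% of the genes in the 4 quartiles of level passed in the 3-line test. Of the 20 highest levels 11 passed between 3 lines, HSPA8, LDHA, CPT1C, TUBB, UBB, NFKBIA, ACTG1, CD53 and PGK1 being those that did not. All 20 genes of largest SD passed, but they were chosen on the same values. In lines not used for the choice, the 100 genes of largest SD over the 3 replicated lines had a median SD of 0.58 over the other 4 lines, against 0.22 for all genes, and 70 of the 100 were in the top decile there. The 100 genes of largest SD over those 4 lines shared 29 with them. Spearman's r between the SDs of both sets of lines was 0.42 over all ranked genes. Both sets share the scaling and the filter on the 7-line mean. The SD over the 4 lines with 1 culture each also holds the spread between cultures, which was larger at low signal. These values are therefore a description.

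Between pairs of lines, GM10835 stood further from the other 2 than they did from each other. GM10835 had 3222 clusters higher (23.0%) and 4183 lower (29.9%) than GM07029. GM12813 had 1373 higher (9.81%) and 1517 lower (10.8%) than GM07029, and 3532 higher (25.2%) and 2424 lower (17.3%) than GM10835. Differences of at least 1, which is 2-fold, were called for 195 clusters higher (1.39%) and 474 lower (3.39%) in the first comparison, 66 (0.472%) and 85 (0.608%) in the second, and 208 (1.49%) and 127 (0.908%) in the last. These comparisons share cultures. Their split into higher and lower depended on how arrays were scaled: with the values as deposited it was 5860 and 1921, 1751 and 791, and 1513 and 4588, and after quantile normalization 4028 and 3565, 1622 and 1536, and 2980 and 3135. The values as deposited moved the median difference of all ranked genes to 0.19, 0.08 and −0.12, from −0.07, 0.02 and 0.07. Without culture 2 or 3 of GM12813, 785 or 816 clusters were higher and 927 or 915 lower than in GM07029.

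The genes with the largest differences between replicated lines were mostly those of large spread. They were picked by the fitted difference, but most had a line below background, and there the size is given only as a lower bound, with cultures below background set to it. GM10835 exceeded GM07029 by at least 3.10 in FAM30A, 2.75 in INPP5F and 3.00 in G0S2, an inhibitor of triglyceride breakdown, and by 2.99 ± 0.06 (SE) in KLHL6, a ubiquitin ligase adaptor of B cells. It was lower than GM07029 by at least 2.85 in PTPRK, a receptor tyrosine phosphatase, 3.50 in IL1A, 2.45 in EFNA5 and 3.14 in F13A1. KLHL6 was 11.37 in GM10835 and 7.95 to 9.06 in the other 6 lines. IL12B, the p40 chain of interleukin 12 and 23, was likewise 10.20 ± 0.05 in GM10835 and 7.08 to 7.60 elsewhere. GM12813 exceeded GM07029 by at least 2.35 in FAM30A, 2.21 in APP and 2.27 in the transcription factor gene LEF1, and by 2.73 ± 0.06 in MUC13. It was lower in ND5, by at least 2.34 in DPYD, which degrades pyrimidines, by at least 1.93 in the complement receptor gene CR1, and the difference was −2.45 ± 0.07 in MMP7. GM12813 exceeded GM10835 by at least 3.42 in F13A1, 2.78 in GPC4, 2.27 in EFNA5 and 2.21 in APP. Apart from ND5, it was lower than GM10835 by at least 2.85 in NRIP1, and differed from it by −3.90 ± 0.10 in CCR9 and by −2.90 ± 0.08 in IL12B. The largest limma adjusted p among these differences was 1.1e-06. It belongs to the fitted differences and not to the bounds. The genes were chosen for large differences among those past the threshold, so small values follow from the choice.

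The counts of list members in the next paragraphs stand against the shares of all 9234 ranked genes. In GM10835 25.9% of them were higher and 27.6% lower than in GM07029, in GM12813 11.3% were higher and 11.8% lower than in GM07029, and in GM12813 23.3% were higher and 19.9% lower than in GM10835. As deposited these shares were 45.1% and 11.5%, 13.6% and 6.10%, and 9.28% and 36.0%. After quantile normalization they were 31.4% and 23.6%, 13.1% and 11.7%, and 20.1% and 24.7%.

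Replication-dependent histone genes, whose transcripts are made in S phase, were lower in GM07029 than in both other replicated lines. Of the 44 members above background 32 were higher and 2 lower in GM10835 than in GM07029, and 35 were higher and 0 lower in GM12813. Of all ranked genes 25.9% were higher and 27.6% lower in the first comparison, and 11.3% and 11.8% in the second. The histones' median differences were 0.54 and 0.63, against −0.07 and 0.02 over all ranked genes, and stayed above 0.5 under the other scalings. H3C3 was 12.15 ± 0.06 in GM07029, 12.79 ± 0.09 in GM10835 and 12.67 ± 0.05 in GM12813 (SD, n = 3), and 12.81 to 12.96 in the other 4 lines. H2AC16 was 11.51 ± 0.39, 12.65 ± 0.48 and 12.34 ± 0.17, with overlap between the cultures of GM10835 and GM12813 only. Histone genes share near-identical sequence, so single members may share signal. Of 30 DNA replication genes, also expressed in S phase, 7 were higher and 7 lower in GM10835 than in GM07029, near the shares over all genes, but as deposited 19 and 0. In GM12813 10 were higher and 0 lower than in GM07029, and 6 were higher without culture 2 of GM12813.

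Genes activated by p53, the DNA damage transcription factor, were highest in GM07029. Of 21 members above background (of 23 on the array) 17 were lower and 0 higher in GM12813 than in GM07029, with a median difference of −0.66, where 11.8% of all ranked genes were lower and 11.3% higher. In GM10835 13 were lower and 4 higher, against 27.6% and 25.9% of all ranked genes. Their median was −0.47, and −0.22 as deposited. MDM2, the ubiquitin ligase that degrades p53, gave 12.13, 11.97 and 12.15 in the GM07029 cultures, 10.88, 11.02 and 11.02 in GM10835, and 11.27, 11.24 and 11.24 in GM12813, without overlap. In GM07019, GM12812, GM12814 and GM12815 it stood at 11.39, 10.78, 10.97 and 11.61. The death receptor gene TNFRSF10B was 11.82 ± 0.11 in GM07029 and 10.85 to 11.47 in the other lines. TIGAR, which lowers glycolytic flux, was 10.28 ± 0.08 there and 8.62 to 9.81 elsewhere.

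Interferon-stimulated genes, the antiviral genes induced by type I interferon, were also highest in GM07029 among the replicated lines. Of 32 members 24 were lower and 3 higher in GM10835 than in GM07029 (median −0.51, as deposited −0.25), and 21 were lower and 1 higher in GM12813 (median −0.33). Of all ranked genes 27.6% and 11.8% were lower in these comparisons, and 25.9% and 11.3% higher. RSAD2, which encodes viperin, gave 9.13, 9.04 and 8.87 in GM07029, 6.43, 6.59 and 6.29 in GM10835, and 7.98, 7.81 and 7.92 in GM12813. GM12812 (9.12) and GM12814 (9.34) were as high as GM07029, and GM07019 (8.16) and GM12815 (8.04) lay near GM12813. IFI44L was 11.20 ± 0.12 in GM10835 and 11.93 to 12.37 in the other 6 lines. MX1, a GTPase that blocks influenza virus, varied less, from 11.80 in GM07019 to 12.30 in GM12812.

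Plasma cell genes were higher in GM10835 than in GM07029 for 11 of 14 members and lower for 3, with a median of 0.80, against 25.9% and 27.6% of all ranked genes. XBP1, the secretory pathway regulator, was 12.26 ± 0.07 in GM10835, 11.62 ± 0.10 in GM07029 and 11.89 ± 0.01 in GM12813, and reached 12.67 in GM12812. MZB1, a chaperone for immunoglobulin assembly, was 9.18 ± 0.05, 7.65 ± 0.06 and 7.80 ± 0.05 in the same replicated lines and 9.38 in GM12812. IRF4 is on this list and differed little, between 12.44 and 12.70. Of 29 B cell identity genes, 7 were higher and 15 lower in GM10835 than in GM07029, but as deposited 10 were higher and 6 lower. CR2, the complement receptor that Epstein-Barr virus binds, ranged from 7.63 in GM12814 to 11.01 in GM07029. HSPA5, the endoplasmic reticulum chaperone BiP, was 13.02 ± 0.06 in GM10835 and 12.27 to 12.57 in the other lines, and DDIT3, a stress transcription factor, was 10.45 ± 0.07 there.

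Genes of mitochondria, protein turnover and glycolysis were also more often higher than lower in GM10835 compared with GM07029. Of 64 mitochondrial ribosomal protein genes 45 were higher and 0 lower, with a median of 0.32, against 25.9% and 27.6% of all ranked genes. Of 54 oxidative phosphorylation genes 31 were higher and 3 lower (0.27), and of 29 proteasome subunits 19 and 2 (0.22). Of 15 glycolysis genes 8 were higher and 2 lower (0.23), and 6 were higher without culture 1 of GM07029. MRPL41, of the large mitochondrial ribosomal subunit, gave 8.13, 7.70 and 7.94 in GM07029 and 9.22, 9.19 and 8.89 in GM10835. NDUFA2, of complex I, differed by 1.11 ± 0.07 (SE) and the proteasome subunit gene PSMB3 by 1.15 ± 0.15, while ATP5F1A differed by −0.04 ± 0.07 (adjusted p = 0.62). GM12813 was lower than GM10835 in 27 and higher in 2 of the mitochondrial ribosomal proteins (all ranked genes, 19.9% and 23.3%), and lower in 17 without culture 3 of GM10835. It was higher than GM07029 in 20 of them and lower in 0, but in 6 without culture 2 of GM12813. As deposited the counts of GM10835 against GM07029 were 60 and 0, 47 and 0, 26 and 0, and 13 and 0, but 45.1% of all ranked genes were then higher and 11.5% lower.

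Mitotic genes were lower in GM10835 than in both other replicated lines, but not under every scaling. Of 27 members 15 were lower and 2 higher than in GM07029 (median −0.29; all ranked genes, 27.6% and 25.9%), and GM12813 was higher than GM10835 in 20 and lower in 1 (0.30). As deposited, where 11.5% of all ranked genes were lower and 45.1% higher, 3 were lower and 7 higher than in GM07029 (median −0.04), so the first of these counts turned, and GM12813 was higher than GM10835 in 10 and lower in 2. CCNB1, the mitotic cyclin, stood at 11.36 ± 0.09 in GM07029, 11.08 ± 0.05 in GM10835 and 11.37 ± 0.04 in GM12813. CENPE, a kinetochore motor, stood at 7.57 ± 0.20, 6.85 ± 0.31 and 7.62 ± 0.10.

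**Figure D4:**
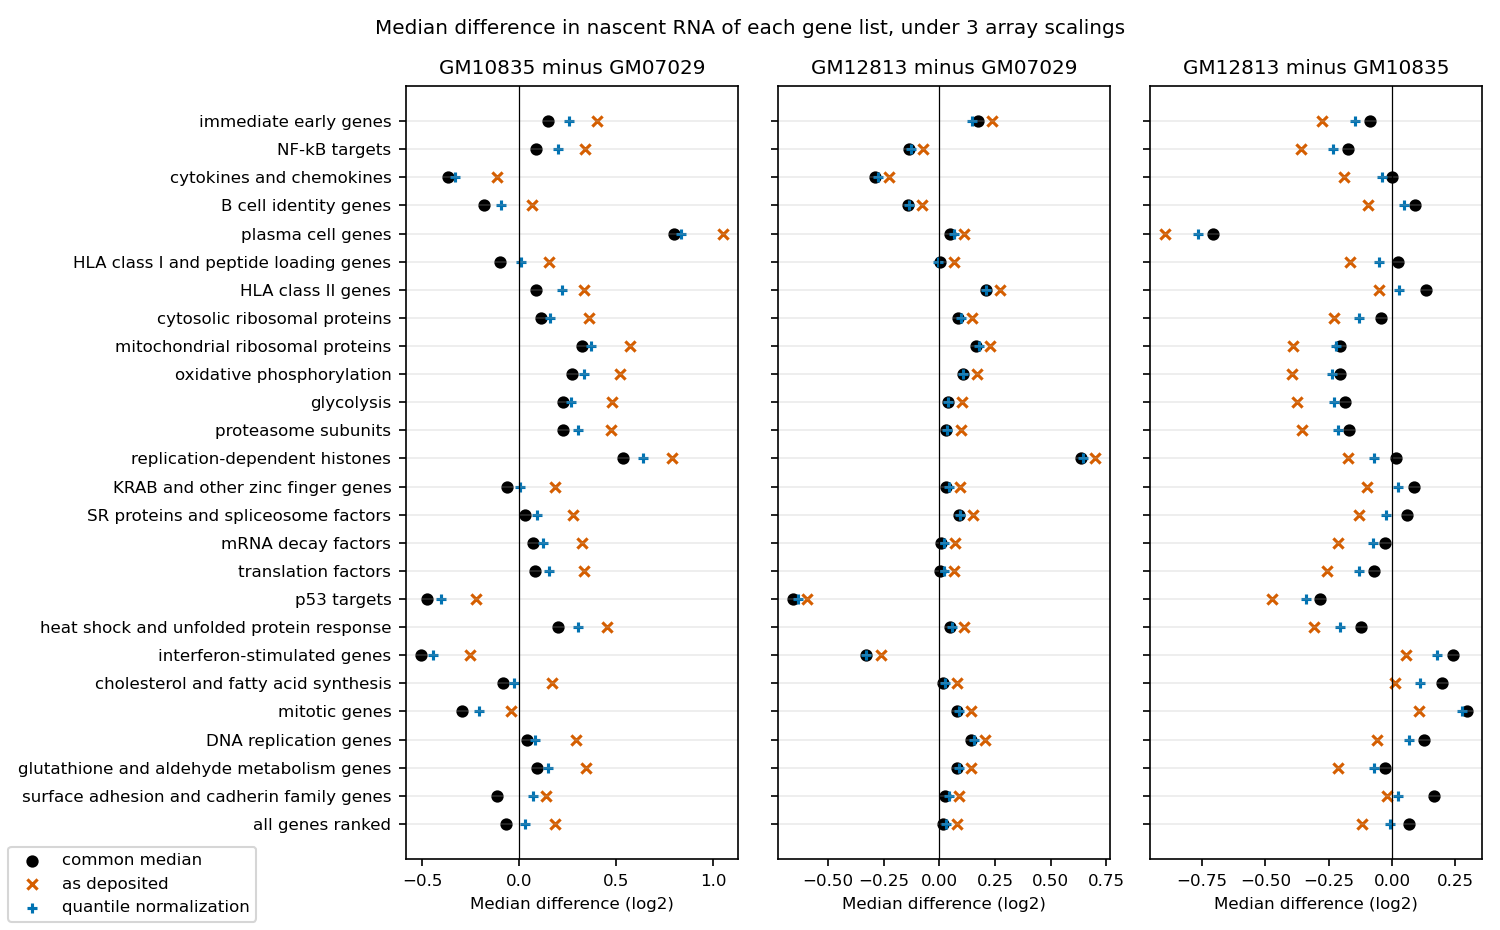
Median difference in log2 nascent RNA signal of each gene list's members above background, for the 3 pairs of replicated lines and under 3 scalings of the arrays. Histones lie at 0.54 to 0.79 for GM10835 minus GM07029 and p53 targets at −0.66 to −0.59 for GM12813 minus GM07029, whereas lists near 0, such as B cell identity genes, change sign with the scaling.

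Of 21 NF-kB targets 7 were higher and 6 lower in GM10835 than in GM07029, against 25.9% and 27.6% of all ranked genes. The split was 14 and 2 as deposited and 11 and 4 after quantile normalization, so it depended on the scaling. IL2RA, the interleukin 2 receptor alpha chain, ranged from 7.52 in GM12814 to 10.49 ± 0.02 in GM10835, and the chemokine gene CCL22 from 10.68 in GM12814 to 12.33 ± 0.07 in GM10835. TNFAIP3, a brake on NF-kB, stayed between 11.27 and 11.98. Of 35 immediate early genes 17 were higher and 8 lower in GM10835 than in GM07029, and 22 and 2 as deposited, where 45.1% and 11.5% of all ranked genes were. JUN was 10.83 ± 0.04 in GM10835, 9.66 ± 0.08 in GM07029 and 9.52 ± 0.05 in GM12813, and 8.64 to 10.02 in the other lines, and RGS2 ranged from 6.91 in GM12815 to 10.13 in GM12814. HLA-DRA, the class II antigen presentation chain, ranked 22 and varied little, from 12.36 to 12.76.

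Among the lines with 1 culture, GM12815 differed most from the others. Its signal correlated least with the other lines (mean r 0.91, against 0.92 to 0.95), and 26 genes were more than 1 below the next line in it. The replicated line GM10835 was near this with 22 such genes. It had 23 genes more than 1 above the next line, against 11 in GM12815. In GM12815 some lists and genes also stood apart. Interferon-stimulated genes had their lowest median in GM12815, 0.59 below their 7-line means, and 0.91 below as deposited. RPS24, a ribosomal protein gene, was 12.29 in GM12815 and 10.20 to 10.99 in the other 6 lines. The array median over clusters above background was also lowest in GM12815, 8.51 as deposited against 8.80 to 9.09 for the other lines, while the olfactory receptor median was 4.98 against 4.80 to 5.03. Setting the arrays to a common median moved that olfactory median to 5.30 in GM12815 and to 4.60 in GM10835, so genes near background appear higher in the first and lower in the second. The markers of other cell types above background moved the same way: relative to their 7-line means their medians ran from −0.38 in GM10835 to 0.38 in GM12815 for T and NK cells and from −0.37 to 0.47 for fibroblasts and epithelia. As deposited these values were −0.12 and 0.06, and −0.11 and 0.15. The part of this in the line differences was not tested, and GM12815 has no replicate culture.

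**Figure D5:**
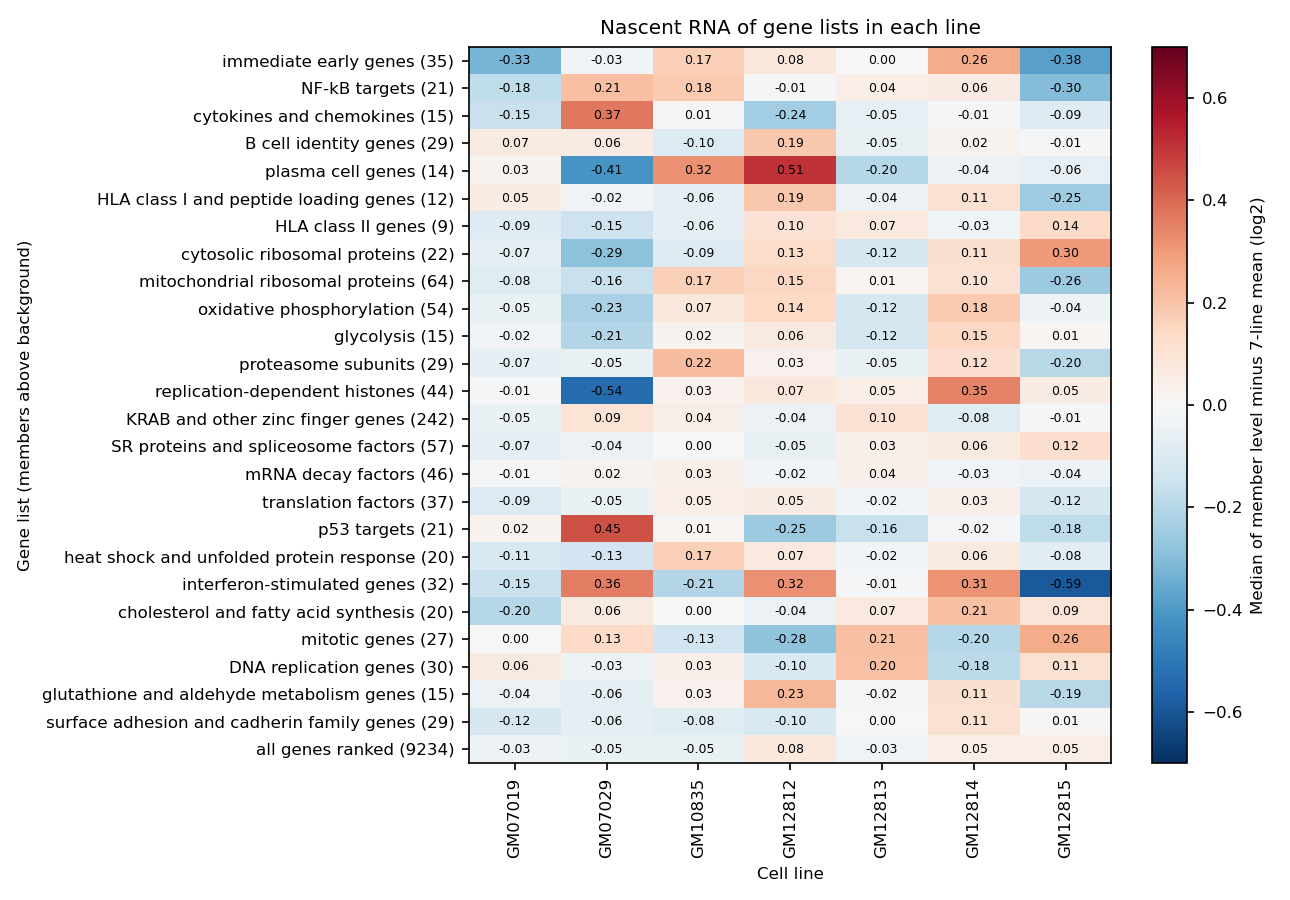
Median over each list's members above background of the log2 signal in a line minus the member's 7-line mean (colour and printed value), after setting arrays to a common median; the last line of the plot is all 9234 ranked genes. Histones are lowest in GM07029 at −0.54, p53 targets highest there at 0.45, and interferon-stimulated genes lowest in GM12815 at −0.59.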

How the data were processed

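Gene-level log2 values of 21788 transcript clusters on human exon arrays were taken from the table the authors deposited. Affymetrix Power Tools and build hg18 are named in the submitters' processing notes; how probes were summarised and corrected for background, and whether both kinds of array were scaled jointly, is not given in the sources used here. Cluster names came from the platform annotation, with 14377 of 14405 single symbols matched to RefSeq.

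Each nascent array was set to a common median over clusters above background. Technical duplicates were averaged per culture, cultures per line, and then the 7 lines. Lines were compared with limma 3.58.1 (R 4.3.3, lmFit, eBayes with a trend, two-sided, Benjamini-Hochberg over 13991 clusters, threshold 0.05). The procedure was also run on simulated data with independent noise in each culture. That simulation held no shifts between arrays and no deviations shared between cultures, so it says nothing on their effect. p-values over the 3 replicated lines rest on 9 cultures, and the number of arrays limits the precision. Alternatives were the values as deposited, quantile normalization, other filters, no trend, 1 array per culture, a replicate block, and leaving out each culture or line.

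Named genes are the 20 highest levels, the 20 largest SDs, the 10 smallest SDs in the top quartile of levels, the 4 largest differences each way per pair of lines, the 2 highest and the most variable member of each list, and a few fixed genes. XIST, TSIX and Y-linked genes were left out. Beyond this rule, marker genes are given to check the cell type. The members, lists and rules were chosen with earlier results of these data known.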

Additional observations from a re-analysis of the deposited data

Results flagged for a closer look

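For 10 of the 133 named genes, 1 line stood apart from the other 6 by more than Dixon's 95% critical value for the gap over the range. Chance alone marks about 1 in 20 sets of values not chosen on them, but many of these genes were named for their large spread or difference between lines, so this rate does not apply to them. GM10835 was the line apart in 5 of them: it was highest for KLHL6 (11.37, next line 9.06), IL12B (10.20, next 7.60), G0S2 (9.91, next 7.93) and HSPA5 (13.02, next 12.57), and lowest for IFI44L (11.20, next 11.93). ND5 was lowest in GM12813, at 4.44 against 11.77 in the next line, and H3C3 was lowest in GM07029, at 12.15 against 12.67. The other 3 concern lines with 1 culture: RPS24 in GM12815 (12.29, next 10.99), COX7B in GM12814 (11.96, next 11.52) and GSTP1 in GM12812 (10.997, next 10.48).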

How the results depend on the processing

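The F test between 3 lines gave 6897 to 9377 clusters with each culture left out in turn, and that between 7 lines 8839 to 12615 with each culture or line left out; the highest count of each came without culture 1 of GM07029. As deposited, the counts of GM10835 against GM07029 became 5860 higher and 1921 lower, that of GM12813 below GM07029 became 791, and those of GM12813 against GM10835 became 1513 higher and 4588 lower. With each culture left out, GM12813 had 785 to 1599 clusters higher and 915 to 1931 lower than GM07029. Of 98 named genes called between 3 lines, 25 lost the call or turned under some alternative, 18 of them as deposited. As deposited the difference between the highest and lowest line turned for RBFOX2 (−0.011), IRF4 (−0.030), HNRNPA2B1 (−0.035), DDX6 (−0.011) and EXOSC9 (−0.078). Replicate numbers did not pair the cultures, as deviations of same-numbered cultures correlated from −0.45 to 0.38. Those of differently numbered cultures of different lines correlated from −0.54 to 0.52, and the main fit took no account of deviations shared in this way. With the replicate number as a block 7181 clusters passed between 3 lines. Signal over background limits the lowest quartile of levels, where cultures of a line differed most.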

Other observations

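Ranked genes next to each other in RefSeq order on a chromosome had somewhat similar profiles over the 7 lines. Genes that were not ranked were skipped in this order, so such neighbours may have other genes between them and may lie far apart. The median Pearson r over 7 lines was 0.28 for 9202 pairs of adjacent ranked genes and 0.083 for pairs 50 places apart. All these pairs share the same 7 lines and the same scaling, so these values are a description. For the 56 adjacent pairs in which both SDs were above 0.5 the median r was 0.56. It was 0.087 for 62 such pairs 2 places apart and 0.23 for 46 such pairs 50 places apart. Pairs chosen after their values were seen include the interferon-induced genes IFIT2 and IFIT3 (0.96), IFIT3 and IFIT1 (0.96), and GBP4 and GBP5 (0.92), which are related in sequence. LZTFL1 is next to CCR9 in this order, and their r was 0.93. The complement receptor genes CR2 and CR1 gave 0.78, and the TRAIL receptor genes TNFRSF10D and TNFRSF10A gave 0.91. TAS2R19 and TAS2R31 gave 0.79, and CYP1B1 and HNRNPLL 0.59. Other adjacent pairs of large SD were not alike: RGS1 and RGS2 gave 0.27 and NUDT12 and EFNA5 0.05. SLFN5 and SLFN12 gave −0.17, SASH1 and UST −0.18, and CR1 and G0S2 −0.52.

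The letters TATA stood in the window from 45 to 16 bases before the start in 15.7% (13 of 83) of the 100 genes of largest SD and in 8.99% of the 100 genes of smallest SD in the top quartile of levels, against 6.69% of all ranked genes.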
